A study of Mus musculus with 6 samples.

Results

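The 8 genes described here are markers of fibroblasts and other stromal cells, the mesenchymal cells that surround an epithelium. They are the intermediate filament gene Vim, the small leucine-rich proteoglycan genes Dcn (decorin) and Lum (lumican), the fibrillar collagen genes Col1a1 and Col3a1, the platelet-derived growth factor receptor gene Pdgfrb, and the matrix glycoprotein genes Sparc and Fn1 (fibronectin). They were chosen by name, and each was measured over its mm10 gene span plus 1000 bases on each side. Their DNA methylation was read in 6 libraries of mouse intestinal organoids, 3 treated with DM-aKG and 3 controls. All 6 carried the Apc Min genotype and were kept in organoid medium low in glutamine; the labels call the material primary cells and the series title relates the treatment to α-ketoglutarate. The sources used here give neither the dose and duration of the treatment nor what separated the biological replicates. P-values therefore measure the spread between these libraries.

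In the gut, fibroblasts and related cells of the lamina propria make the collagens, proteoglycans and fibronectin of the matrix and respond to platelet-derived growth factor through Pdgfrb, while epithelial cells use few of these genes. DNA methylation at CpG dinucleotides near a gene's start is associated with silencing where that start is rich in CpG, and methylation inside the body of a gene is common whether the gene is used or silent. In human colorectal cancer, methylation of the VIM start region is a known marker. The comparison asks whether levels at these genes differ between treated and control organoids, and whether they are those of stromal genes silenced in an epithelium.

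The assay, reduced representation bisulfite sequencing, reads cytosines in CpG-rich fragments, so each gene is seen only at clusters of sites. The table lists 286 positions in the 8 genes, and 177 of them, 61.9%, had a value in all 6 libraries, against 69.8% of all positions used. Only these 177 complete sites of 272327 in the series enter the gene levels. Fn1 had 99 of them, Pdgfrb 24, Sparc 20, Col1a1 17, Vim and Dcn 7 each and Col3a1 3, and in Lum no position was listed. The other 7 genes, of 9197 gene spans with at least 3 complete sites, have a gene level here. No value from 1% to 39% occurs in the table, so a listed 0 can be a lower level or an uncalled position, and such zeros were left out. The levels are thus those of sites at 40% or more, the number of reads behind them is unknown, and a level between 40% and 100% in a bulk library does not tell partly methylated cells from a mixture of methylated and unmethylated ones.

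The starts of the genes were mostly outside what the table measures. RefSeq sequence of GRCm38.p6, the assembly of mm10, was at hand for the region from 250 bases before to 50 bases after the start of 3 of the 8 genes, Vim, Col3a1 and Sparc, and is shown because it gives the CpGs that a level could have come from. CpG dinucleotides (the letters CG, which read the same on both strands) are in capitals.

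Vim, chr2:13574061-13574360, plus strand: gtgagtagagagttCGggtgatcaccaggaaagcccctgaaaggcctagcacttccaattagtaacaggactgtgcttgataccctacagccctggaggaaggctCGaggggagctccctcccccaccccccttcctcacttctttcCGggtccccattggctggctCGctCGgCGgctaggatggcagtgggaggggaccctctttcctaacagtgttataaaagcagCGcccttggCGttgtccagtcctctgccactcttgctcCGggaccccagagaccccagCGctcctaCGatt

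Col3a1, chr1:45311288-45311587, plus strand: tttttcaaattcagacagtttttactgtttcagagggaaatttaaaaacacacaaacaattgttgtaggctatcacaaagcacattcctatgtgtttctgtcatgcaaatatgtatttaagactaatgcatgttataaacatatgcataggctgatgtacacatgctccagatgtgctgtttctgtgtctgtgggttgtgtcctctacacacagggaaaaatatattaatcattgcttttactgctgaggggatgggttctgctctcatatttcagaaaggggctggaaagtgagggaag

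Sparc, chr11:55420031-55420330, minus strand: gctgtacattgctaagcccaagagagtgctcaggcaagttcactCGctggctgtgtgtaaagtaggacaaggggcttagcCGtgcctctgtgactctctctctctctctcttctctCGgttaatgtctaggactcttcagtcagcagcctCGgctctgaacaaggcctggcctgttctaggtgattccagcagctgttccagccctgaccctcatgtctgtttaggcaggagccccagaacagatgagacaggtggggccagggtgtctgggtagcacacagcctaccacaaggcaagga

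The Vim window holds 11 CpGs and 2 copies of CCGG, the sequence at which such libraries are commonly cut. The Sparc window holds 4 CpGs and the Col3a1 window none, and neither holds CCGG. Over the 32851 windows of the same table the median was 7 CpGs, 52.8% held CCGG and 5.43% held no CpG. No listed position fell in any of the 3 windows. At Vim the listed position nearest to the start lay 381 bases inside the gene and had a value only in control replicate 1 (50%) and control replicate 3 (100%). At Sparc 7 positions lay 810 to 915 bases before the start, and 3 of them were complete.

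For the other 4 measured genes the strand is not given in the annotation used here, so distances run from the end with the lower coordinate. At Col1a1 7 positions lay from 38 bases before to 115 bases after that end, and none was complete. They had values at 4, 6 and 7 positions in DM-aKG replicates 1, 2 and 3 and at 3, 4 and 1 in control replicates 1, 2 and 3. Every such value was 100% in DM-aKG replicates 1 and 3 and control replicates 2 and 3. The values were 40% to 100% in DM-aKG replicate 2 and 50% to 100% in control replicate 1. At Pdgfrb 19 positions lay 164 to 500 bases after that end, and 7 were complete. In Dcn and Fn1 the listed positions nearest to either end of the span were 14419 and 4975 bases away, and in Col3a1 the nearest lay 17745 bases from an end. The gene levels therefore describe mainly the interiors of these genes.

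Levels at the complete sites differed between the genes. That every such site stands at 40% or more follows from the way sites were selected and is not a result. Over the 6 libraries Vim stood highest at 95.4% ± 1.45 (SD, n = 6), followed by Fn1 at 88.4% ± 1.49, Sparc at 85.1% ± 2.44, Dcn at 82.6% ± 4.94, Col1a1 at 81.1% ± 1.91, Pdgfrb at 80.8% ± 6.06 and Col3a1 at 63.9% ± 6.07. From Sparc down to Pdgfrb, neighbours in this order differed by less than their larger SD, while Vim, Fn1 and Col3a1 each stood further than that from the next gene. Among the 9197 gene spans Vim lay at percentile 90.4 of the mean level, Fn1 at 46.9, Sparc at 30.8, Dcn at 21.3, Col1a1 at 16.8, Pdgfrb at 16.3 and Col3a1 at 0.587. The median of the 7 genes was 82.6%, and that of all gene spans 89.0%. Only Vim of the 7 genes lay above that median.

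No stromal gene passed the test of treatment. By limma on log2 odds with Benjamini-Hochberg adjustment over all 9197 gene spans, 0 passed an adjusted p of 0.05 (0%), and 573 (6.23%) reached 0.05 before adjustment, 454 with higher (4.94%) and 119 with lower (1.29%) treated values. Of the 7 stromal genes 2, Vim and Dcn, had an unadjusted p under 0.05, both with higher values. On untransformed percentages 1 gene span of the 9197 passed, and it was not one of these. In 6 of the 7 genes the DM-aKG mean was the higher, as it was in 66.4% of all gene spans. The count was 5 of 7 with library means equalised, and 3 of 7 with each library averaged over every site it had a value at. The median difference was 2.33 percentage points over the 7 (-0.127 with every valued site) and 0.733 over all gene spans.

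**Figure D1:**
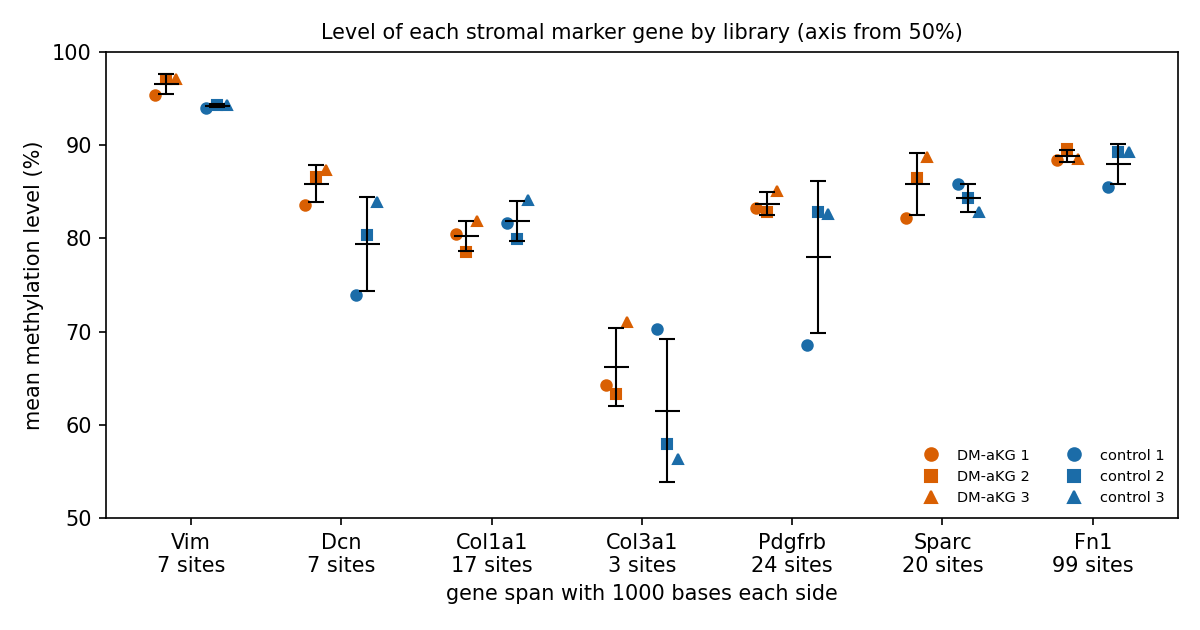
Mean methylation level (%, vertical axis from 50%) of each stromal marker gene with at least 3 complete sites (horizontal axis) in the 3 DM-aKG and 3 control libraries; points are libraries, black bars the group mean and SD (n = 3). Control replicate 1 lies below the other libraries at Dcn (73.9%) and Pdgfrb (68.6%), and the groups overlap in 5 of the 7 genes.

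Vim, whose protein forms the intermediate filaments of mesenchymal cells, had levels of 95.3%, 97.1% and 97.1% with DM-aKG and 94.0%, 94.3% and 94.3% in the controls. The lowest treated library stood 1 point above the highest control. The difference was 2.33 points (95% interval -0.0489 to 4.72 by limma on percentages), with an unadjusted p of 0.0148 and a limma adjusted p of 0.764 on log2 odds. With each 0 counted as a level it turned to -4.21 points. All 7 Vim sites lie in 1 cluster 5137 to 5179 bases inside the gene, so they are not independent of one another. The lowest Vim site, on chromosome 2 at 13579490, was at 73%, 100% and 100% with DM-aKG and at 88%, 60% and 100% in the controls, which overlap. The Vim site with the smallest unadjusted p (0.225), at 13579456, was at 100% in all 3 treated libraries and at 98%, 100% and 90% in the controls. The share of Vim sites at exactly 100% was 71.4%, 71.4% and 85.7% in the DM-aKG libraries and 0%, 85.7% and 57.1% in controls.

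Dcn encodes a collagen-binding proteoglycan. Its levels were 83.6%, 86.6% and 87.3% with DM-aKG, against 73.9%, 80.3% and 83.9% in the controls. DM-aKG replicate 1 lay just under control replicate 3, so the groups overlapped. The means were 85.8% ± 1.97 with DM-aKG and 79.3% ± 5.07 in controls (SD, n = 3 each). The difference was 6.48 points (95% interval 0.0613 to 12.9), with a limma adjusted p of 0.764. For this and every other gene, the interval is from limma on percentages and the adjusted p from limma on log2 odds. On percentages the limma adjusted p of Dcn was 0.716. All 7 Dcn sites, in 1 cluster 24181 to 24244 bases from the low-coordinate end, had the higher mean with DM-aKG. The lowest of them, on chromosome 10 at 97503713, was at 71%, 70% and 90% with DM-aKG and at 55%, 67% and 69% in controls. Without control replicate 1 the Dcn difference was 3.74 points.

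Lum lies on the same chromosome, from 97565501 to 97572703. Lumican, its product, is a proteoglycan that organises collagen fibrils, and no level of the gene can be given.

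The fibrillar collagen genes had differences of opposite sign, neither past the test. Col1a1, a chain of type I collagen, was at 80.4%, 78.5% and 81.8% with DM-aKG and at 81.6%, 79.9% and 84.1% in the controls. The treated mean was the lower, with a difference of -1.67 points (95% interval -5.27 to 1.94, limma adjusted p = 0.824), and the groups overlapped. With each 0 counted as a level it turned to 4.36 points. Of its 17 sites 9 were higher and 7 lower. The Col1a1 site with the smallest p, on chromosome 11 at 94946783, was at 77%, 76% and 86% with DM-aKG and at 89%, 88% and 94% in controls. In the next cluster of the gene the order was the reverse, and the site at 94947644, the lowest of Col1a1, was at 76%, 50% and 71% with DM-aKG, against 48%, 42% and 43% in controls. The site with the largest difference, at 94946616, was at 50%, 50% and 62% with DM-aKG and at 100%, 57% and 100% in controls. There control replicate 2 falls among the treated values. The other cytosine of that CpG, at 94946617, did not share the difference (1.33 points). It was at 55%, 51% and 70% with DM-aKG and at 58%, 61% and 53% in controls. None of these passed the adjusted threshold over all sites.

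Col3a1, the chain of type III collagen, was the least methylated stromal gene and rests on 3 sites in 1 cluster. Its levels were 64.3%, 63.3% and 71.0% with DM-aKG and 70.3%, 58.0% and 56.3% in controls, with control replicate 1 among the treated values. The difference was 4.67 points (95% interval -5.28 to 14.6, limma adjusted p = 0.802). It was 9.06 points without control replicate 1, while leaving out the third control gave 2.06 points. The Col3a1 difference turned to -1.69 points with each library averaged over every site it had a value at, and to -6.00 with each 0 counted as a level. The site on chromosome 1 at 45331785, 20247 bases after the start, had the smallest unadjusted p of the 177 sites. It was at 75%, 77% and 78% with DM-aKG and at 64%, 60% and 63% in controls, so the groups did not overlap. The difference of 14.3 points had an unadjusted p of 0.000302, and a limma adjusted p of 0.578 over the 272327 sites. The other cytosine of the same CpG, at 45331784, had a difference of the opposite sign, -7.67 points. It was at 62%, 67% and 77% with DM-aKG and at 100%, 74% and 55% in controls. The third site, at 45331766, the lowest of the gene, was at 56%, 46% and 58% with DM-aKG. In controls it was at 47%, 40% and 51%, and the groups overlap.

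Pdgfrb encodes the receptor tyrosine kinase that marks pericytes and fibroblasts. Its levels were 83.2%, 82.8% and 85.1% with DM-aKG, against 68.6%, 82.8% and 82.6% in the controls. Control replicate 1 stood far below the other 5 libraries, and the lowest treated library exceeded the highest control by only 0.0833 points. The means were 83.7% ± 1.21 with DM-aKG and 78.0% ± 8.11 in controls (SD, n = 3 each), a difference of 5.72 points (95% interval -3.67 to 15.1, limma adjusted p = 0.764). The Pdgfrb difference was 1.04 points without control replicate 1, and -0.127 with each library averaged over every site it had a value at. Groups that did not overlap, with DM-aKG above, were found in 2 of the 7 genes, Vim and Pdgfrb, and in 11.3% of all gene spans. The reverse was found in none of the 7 and in 2.53% of all gene spans.

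In Pdgfrb control replicate 1 was lowest by the widest margin in 2 clusters of sites. In the cluster 164 to 500 bases from the low-coordinate end, with 7 complete sites, the level was 85.4%, 85.4% and 86.7% with DM-aKG and 71.1%, 85.6% and 85.7% in control replicates 1, 2 and 3. All 7 sites also lie within 1000 bases of the neighbouring gene Gm52351. In the cluster of 9 sites 16056 to 16378 bases in, it was 92.2%, 87.2% and 85.8% with DM-aKG and 67.3%, 85.3% and 83.8% in the controls. The same library was lowest of the 6 at 16 of the 24 Pdgfrb sites (66.7%), against 22.9% of all complete sites. These 24 sites lie in a few short clusters and include 9 pairs on opposite strands of a CpG. They are therefore not independent of one another. A Pdgfrb cluster 20684 to 20980 bases in was the least methylated of the gene, at 54.8%, 60.0% and 66.8% with DM-aKG and 47.0%, 56.5% and 57.8% in controls. The site with the largest Pdgfrb difference, on chromosome 18 at 61061379, was at 100%, 78% and 94% with DM-aKG and at 50%, 72% and 83% in controls. In the other direction, the site at 61061338 was at 75%, 74% and 73% with DM-aKG and at 80%, 81% and 76% in controls, and it had the smallest unadjusted p of the gene (0.0326, adjusted p = 0.868 by limma).

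Sparc and Fn1, genes of matrix glycoproteins, showed small differences. Sparc was at 82.2%, 86.5% and 88.7% with DM-aKG and at 85.8%, 84.3% and 82.8% in controls, with overlapping groups and a difference of 1.48 points (95% interval -3.07 to 6.04, limma adjusted p = 0.845). Leaving out DM-aKG replicate 3 gave a Sparc difference of 0.0583 points, and leaving out replicate 1 of that group gave 3.28. It was 2.67 points with no flank, which leaves out the sites before the start. It turned to -1.43 points with each library averaged over every site it had a value at. Its 3 complete sites before the start were the most variable cluster, with means of 55.7%, 72.3% and 83.3% with DM-aKG and 93.3%, 75.3% and 58.3% in controls. Inside the gene, 10162 to 10306 bases after the start, 7 sites were at 84.3%, 88.0% and 91.1% with DM-aKG and at 78.9%, 78.6% and 86.4% in controls. The Sparc site with the smallest p, on chromosome 11 at 55395916, was at 88%, 86% and 86% with DM-aKG. All 3 controls stood above these values, at 91%, 97% and 96%. The cytosine just before it, at 55395915, was at 88%, 94% and 93% with DM-aKG. In controls that cytosine was at 87%, 98% and 88%, and the groups overlap.

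Fn1 is the best measured of the 7 genes. Its 99 sites in 9 clusters gave 88.4%, 89.6% and 88.5% with DM-aKG and 85.5%, 89.2% and 89.2% in controls. The groups overlapped, and the difference of 0.865 points had a 95% interval of -2.36 to 4.09 (limma adjusted p = 0.89). Without control replicate 1, the lowest library, the Fn1 difference was -0.367 points, and with library means equalised it was -0.185. Of the Fn1 sites 56 were higher, 39 lower and 4 equal. The clusters ran from 74.6% ± 1.09 with DM-aKG and 74.5% ± 6.71 in controls, at 18159 to 18413 bases from the low-coordinate end, to 96.0% ± 1.06 with DM-aKG and 94.9% ± 0.853 in controls at 24019 to 24108 bases (SD, n = 3 each). The second of these clusters holds the site on chromosome 1 at 71609573, which had the largest difference of the gene, with 95%, 88% and 93% in DM-aKG libraries and 77%, 79% and 83% in controls. Its limma adjusted p was 0.721. The lowest Fn1 site, at 71641424, was at 40%, 61% and 60% with DM-aKG and at 44%, 79% and 49% in controls.

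**Figure D2:**
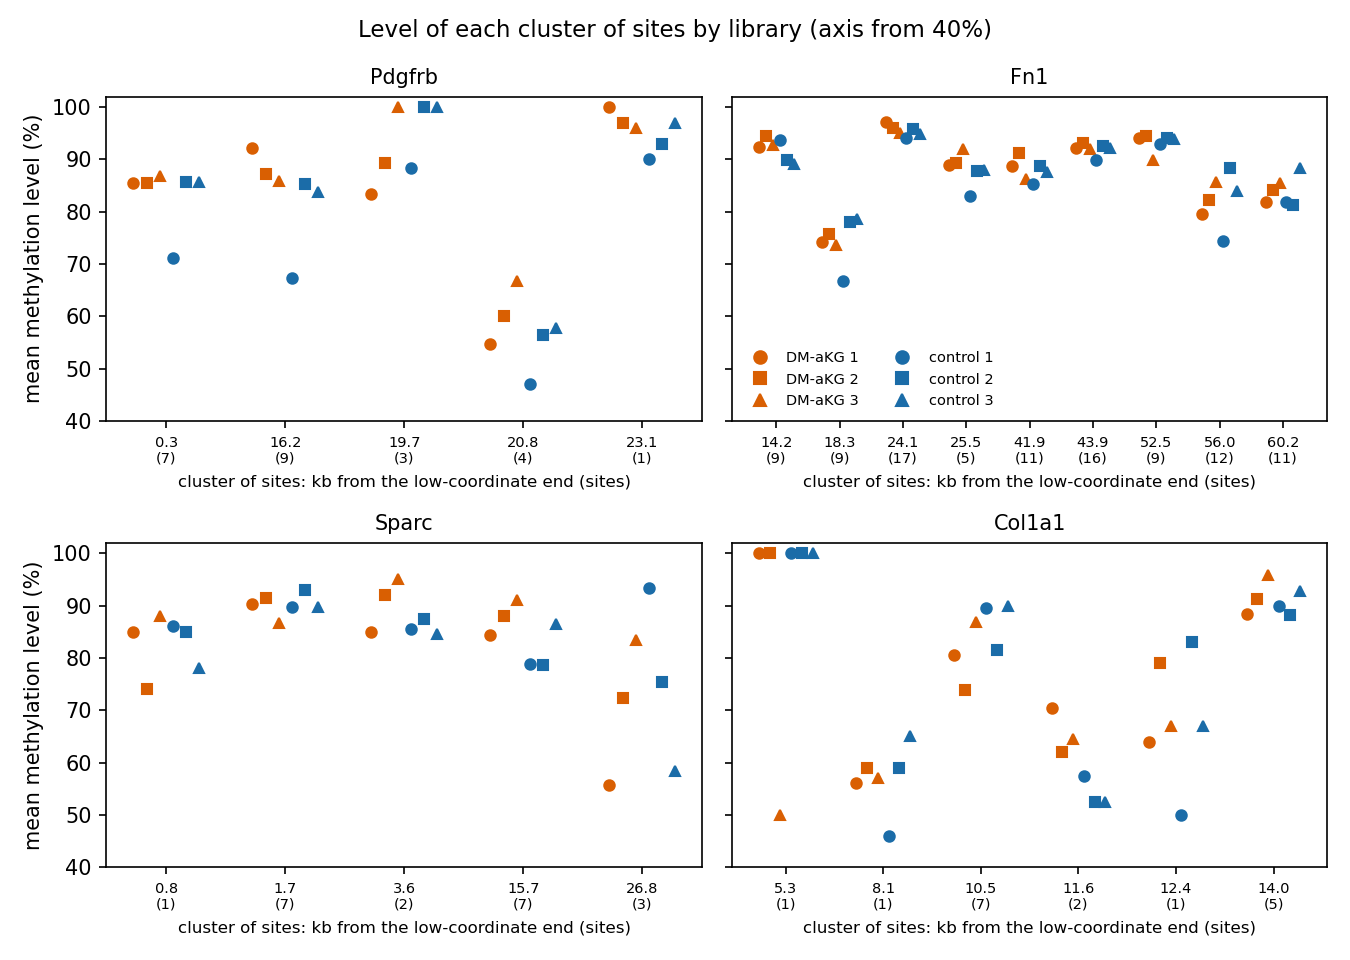
Mean methylation level (%, vertical axis from 40%) of each cluster of complete sites in Pdgfrb, Fn1, Sparc and Col1a1, by library; the horizontal axis gives the distance of the cluster's middle from the low-coordinate end of the gene in kilobases, not to scale, with the number of sites in brackets, and positions over 500 bases apart start a new cluster. In Pdgfrb control replicate 1 lies at 71.1% and 67.3% in the first 2 clusters, where the other 5 libraries lie between 83.8% and 92.2%.

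No stromal site passed the adjusted threshold. On percentages limma called 0 of the 177 stromal sites, and 0 of all 272327 sites (0%). On log2 odds it called none of the 177, against 407 of all sites (0.149%). An unadjusted p under 0.05 was found at 10 of the 177 sites (5.65%), 7 higher and 3 lower, and at 5.44% of all sites, 3.54% higher and 1.89% lower. The 3 treated values lay above the 3 controls at 10 sites (5.65%, against 4.63% of all sites) and below them at 4 (2.26%, against 2.50%). The DM-aKG mean was the higher at 111 stromal sites (62.7%) and at 53.3% of all sites. By gene it was the higher at 56 of 99 sites in Fn1, 20 of 24 in Pdgfrb and 11 of 20 in Sparc. The counts were 9 of 17 in Col1a1, 6 of 7 in Vim, 7 of 7 in Dcn and 2 of 3 in Col3a1. Control replicate 1 was the lowest library at 66.7% of the Pdgfrb sites and 71.4% of the Dcn sites, against 32.8% of the 177. The median site difference was 1.33 points in the stromal genes and 0.667 points over all sites. A mean level under 80% was found at 43 stromal sites (24.3%) and at 20.9% of all sites, and a value of 100% in all 6 libraries at 1 stromal site (0.565%) and at 3.33% of all sites. Over the 63 stromal pairs of cytosines on opposite strands of 1 CpG, the median difference was 4 to 6 points, depending on the library. Of these pairs 38 lay in Fn1, with medians of 4 to 6 points. The medians were 6 to 17 points over 4 pairs in Col1a1 and 0 to 10 over 3 pairs in Vim. The pooled median is therefore not the error of each named site.

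Control replicate 1 also lacked more values at these genes than any other library. Of the 286 stromal positions 47, 47 and 30 had no value in DM-aKG replicates 1, 2 and 3, against 78, 46 and 39 in control replicates 1, 2 and 3, and the 78 are 27.3% of the positions. Over the whole table control replicate 1 lacked a value at 16.3% of positions and the other 5 libraries at 11.4% to 14.8%. DM-aKG replicates 1, 2 and 3 were the only library without a value at 2, 4 and 1 stromal positions (0.983%, 0.925% and 0.897% of all positions used), and control replicates 1, 2 and 3 at 24, 2 and 3 (2.99%, 0.677% and 0.874% of all positions used). The 24 positions of control replicate 1, 8.39% of the 286, lay in Pdgfrb (10), Col1a1 (8) and Fn1 (6). The mean of the other 5 libraries at these 24 positions had a median of 59.3% and ranged from 49.4% to 100%, against a median of 65.8% at all 11661 such positions. Whether a level under 40% or a missing call lies behind each of these zeros cannot be told from the table. A value in all 3 DM-aKG libraries and in no control was found at 2 stromal positions (0.699%) and at 0.314% of all positions used, and the reverse at 0 stromal positions and at 0.459% of all.

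**Figure D3:**
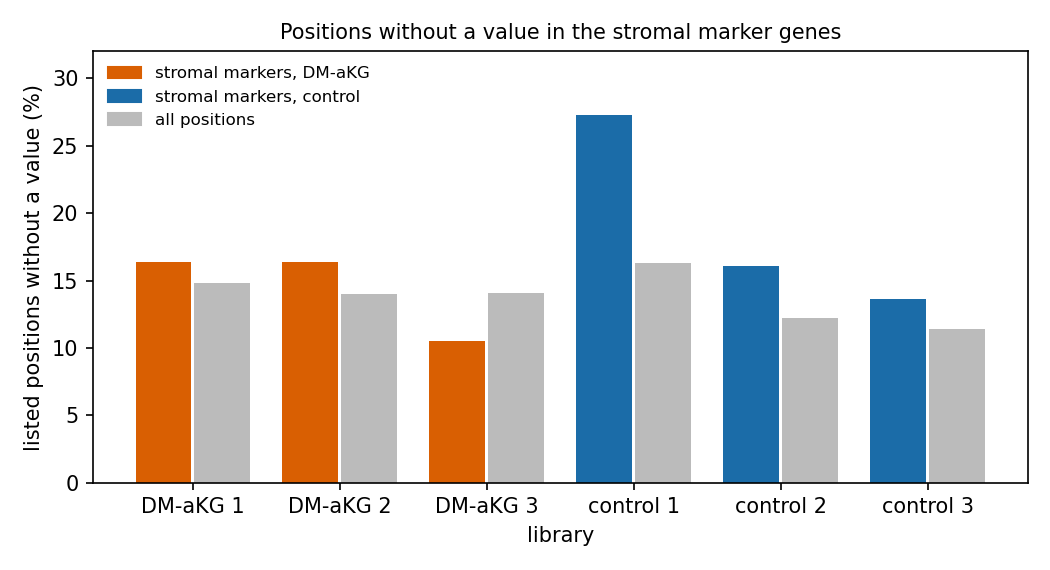
Share of listed positions without a value (%, vertical axis) in each library, for the 286 positions of the stromal marker genes (coloured bars) and all positions used (grey bars). Control replicate 1 lacks 27.3% of the stromal positions, and the other 5 libraries lack 10.5% to 16.4%.

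A wider list of stromal genes was measured in the same way. Of its 46 genes, among them collagens V and VI, mesenchymal transcription factors and smooth muscle genes, 21 had a level, and their median of 83.5% was close to the 82.6% of the 7 markers. None of the 21 passed the test, and 0 had an unadjusted p under 0.05. Treated means were higher in 19 and lower in 2 (16 and 5 with library means equalised), with a median difference of 2.65 points, and of 0.549 points without control replicate 1 (all gene spans: 0.733 and 0.487). Control replicate 1 was the lowest of the 6 libraries in 15 of the 21, in 4 of the 7 markers and in 37.9% of all gene spans. The muscle intermediate filament gene Des had the largest difference, with 81.6%, 81.2% and 85.1% in DM-aKG libraries and 71.9%, 81.3% and 74.5% in controls (limma adjusted p = 0.764). Thbs1, which encodes the matrix glycoprotein thrombospondin-1, had 85.7%, 79.2% and 85.9% with DM-aKG, against 70.5%, 81.8% and 83.7% in controls, and its difference of 4.89 points was 0.789 without control replicate 1. Col5a2 was at 81.6%, 82.1% and 88.1% with DM-aKG and at 78.1%, 80.7% and 80% in controls, groups that did not overlap. Treated libraries all above the controls were found in 2 of the 21 genes, Col5a2 and Col6a1, and in 11.3% of all gene spans. The lowest levels of the list were those of the smooth muscle myosin gene Myh11 (76.9% ± 0.888 with DM-aKG and 76.0% ± 3.57 in controls) and of Twist2, a mesenchymal transcription factor (78.3% ± 5.10 with DM-aKG and 75.4% ± 1.90 in controls; SD, n = 3 each).

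Epithelial genes, the markers of the labelled tissue, had a higher median level. Of 32 on the list 14 had a level, with a median of 90.4%. Treated means were higher in 5 and lower in 9 (2 and 12 with library means equalised), with a median difference of -0.469 points and none past the test. Epcam, an epithelial adhesion gene, was at 88.2%, 86.8% and 88.7% with DM-aKG, below the controls at 92.3%, 88.8% and 89.2% (limma adjusted p = 0.764), and control replicate 1 was there the highest library. The Epcam difference was -2.19 points, and -1.11 without that library. The lowest control exceeded the highest treated library by only 0.0952 points. Treated libraries all below the controls were found in 1 of the 14 epithelial genes and in 2.53% of all gene spans. The intestinal keratin gene Krt20 was at 92.8%, 94.2% and 92.2% with DM-aKG and at 98.6%, 92.2% and 94.6% in controls. The lowest epithelial genes were Spint1, a serine protease inhibitor (73.8% ± 3.67 with DM-aKG and 77.1% ± 4.10 in controls), and Gpa33, an intestinal surface antigen (77.3% ± 1.10 with DM-aKG and 78.2% ± 2.03 in controls). Control replicate 1 was the lowest library in 1 of the 14 epithelial genes. It was the only library without a value at 0.973% of the 822 epithelial positions, and at 5.11% of the 1115 positions of the wider stromal list. That share was 4.99% in the endothelial list, 4.28% in the immune list and 2.99% over all positions used. A methylation level inside a gene does not show whether the gene is used, so these values do not test the tissue label.

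Markers of other cell types that a culture could hold were also often lowest in control replicate 1. Of 9 immune genes with a level, it was lowest in 6, and of 5 endothelial genes in 4, against 37.9% of all gene spans. The leukocyte gene Ptprc was at 79.0%, 77.9% and 72.9% with DM-aKG and at 65.3%, 73.5% and 75.8% in controls, and Lcp2, a T cell adaptor gene, at 74.5%, 78.8% and 83.7% with DM-aKG and at 64.9%, 75.8% and 73.5% in controls. Cd48, another leukocyte gene, was at 91.0% ± 2.65 with DM-aKG and 85.1% ± 3.79 in controls, with the only unadjusted p under 0.05 of the list (0.044, limma adjusted p = 0.764). Such an unadjusted p was found in 6.23% of all gene spans. Of the endothelial genes Eng, an endothelial receptor gene, was at 89.0%, 88.9% and 89.4% with DM-aKG, above 85.4%, 87.4% and 87.5% in controls, and the transcription factor gene Erg at 86.1% ± 1.92 with DM-aKG and 84.0% ± 2.29 in controls. Treated libraries all above the controls were found in 1 of the 5 endothelial genes, 1 of the 9 immune genes and 11.3% of all gene spans. The junction gene Cldn5 had the lowest endothelial level, 67.0% ± 2.84 with DM-aKG and 66.2% ± 4.84 in controls. The median differences of the immune and endothelial lists were 2.22 and 0.75 points, with median levels of 84.9% and 85.1%. Without control replicate 1 these differences were 1.73 and 0.451 points. The part of control replicate 1 or of any other cell type in these differences was not tested.

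**Figure D4:**
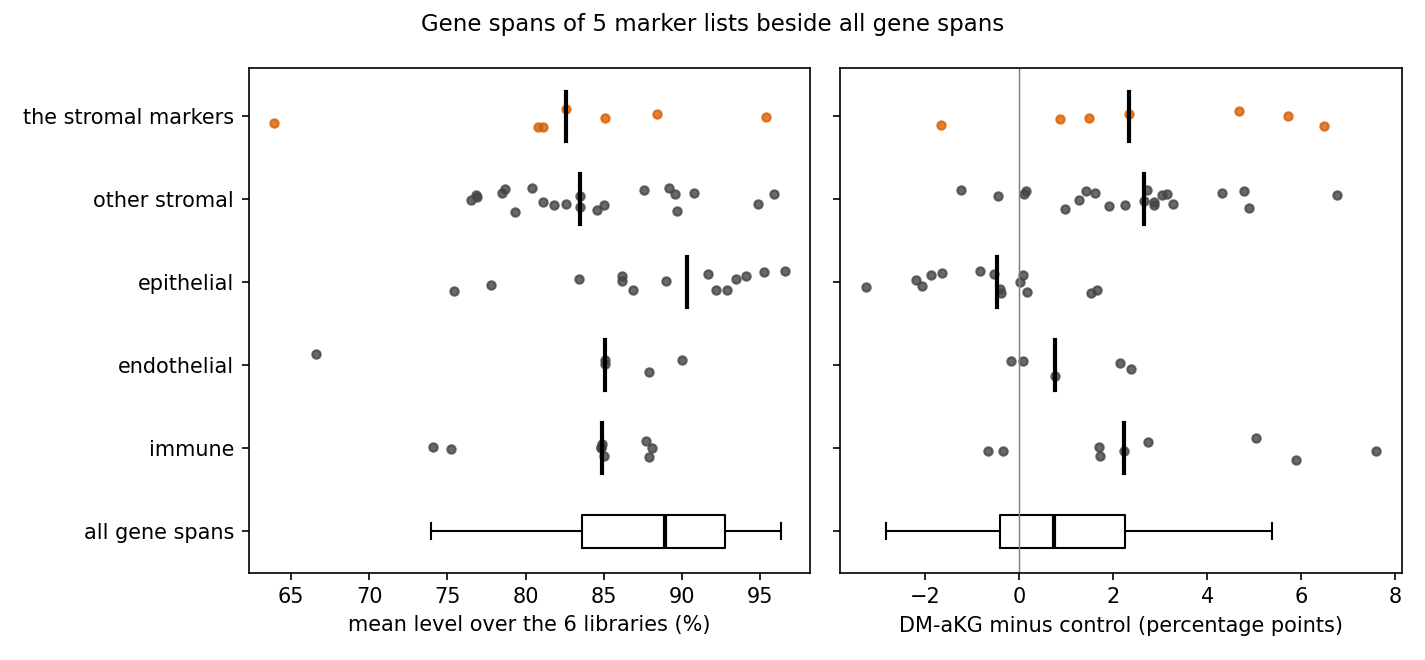
Mean level over the 6 libraries (left, %) and difference between DM-aKG and control means (right, percentage points) of each gene span in 5 marker lists; black bars are list medians, and the box for all 9197 gene spans shows the quartiles with whiskers at the 5th and 95th percentiles. The stromal markers have a median level of 82.6% and a median difference of 2.33 points (-0.127 with every valued site), and the epithelial genes 90.4% and -0.469 points.

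On the question of silenced stromal genes, the table gives levels of 63.9% to 95.4% at the complete sites of 7 genes. In 6 of them the level was below that of the median gene span. The ends of this range, Col3a1 and Vim, each come from 1 cluster of sites, as does the level of Dcn. The table lists no position in the start windows of Vim, Col3a1 and Sparc. It cannot show an unmethylated start, since levels under 40% carry no value. Near the low-coordinate end of Pdgfrb, whose strand is not given here, 7 sites stood at 85.9% ± 0.742 with DM-aKG and 80.8% ± 8.37 in controls (SD, n = 3 each). For the starts of Vim, Col3a1 and Sparc the data neither show nor deny methylation.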

How the data were processed

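The deposited table gives, per cytosine position and library, a percent of methylation that the authors rounded to whole numbers, without coverage, so no read-count interval or coverage minimum was possible. Per the submitters' processing notes the build was mm10 and CASAVA 1.8 and Novoalign 3.08.02 were used. The first 47.9% of the 813850 rows were used, which hold chromosomes 1, 2 and 10 to 19 and part of chromosome 3. In later rows control replicates 1 and 2 correlated with the other libraries at -0.00432 to -0.00137 across positions, against 0.598 to 0.77 between all pairs in the rows used. Read from 1, the start column falls on a CpG at 4199 of 4203 positions inside RefSeq start windows (99.9%), and read from 0 at 55.4%, so positions are printed counted from 1.

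Gene levels are means over complete sites of 34614 annotated spans (GRCm38.p6) with a 1000-base flank and at least 3 sites. The gene test was limma (3.58.1, R 4.3.3) on log2 odds, offset 0.01, and the site test limma on percentages, since log2 odds call mainly sites at exactly 100% in a group. Both used all 6 libraries, no replicate block, Benjamini-Hochberg adjustment and a threshold of 0.05, and were tested on simulated data. Tables were made with pandas 2.3.3 in Python 3.11.15.

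The 8 genes and the other lists were chosen with earlier results of these data known. All 8 genes are named. Per gene the sites named are those with the smallest p, the largest difference and the lowest level, and per other list the genes named are the 2 with the smallest p and the 2 with the lowest level (for the wider stromal list also the 2 with the largest difference). The Fn1, Pdgfrb and Sparc clusters and the Col1a1, Vim and Sparc positions near gene ends were chosen after their values were seen.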

Additional observations from a re-analysis of the deposited data

How the results depend on the processing

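Of 138 alternative values of the 7 gene differences 130 kept their direction, none passed the adjusted threshold (smallest limma adjusted p 0.555), and 8 reversed. Settings that changed only the scale, the offset, the replicate block or the variance model could not change a difference in points. Their share of the 130 was therefore fixed in advance and says nothing about stability of direction. With each 0 counted as a level the differences were -4.21 points for Vim, 4.36 for Col1a1 and -6.00 for Col3a1, with Krt20 at 0.571 and Cldn5 at -4.36, and 7 gene spans were called in place of 0. With each library averaged over every site it had a value at, they were -1.69 for Col3a1, -0.127 for Pdgfrb and -1.43 for Sparc, the median of the 7 genes was -0.127, and 1 gene span was called. With library means equalised, which removes a general difference of 1.05 points, Fn1 was at -0.185, Myh11 at -0.0876, Cldn5 at -0.301 and the endothelial median at -0.301. A called gene span (1 each) also came with untransformed percentages, an offset of 0.05 and at least 1 site, and log2 odds called 407 sites. The cause of these changes was not tested.

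With single replicates left out the difference ranged from 2.02 to 2.95 points for Vim, 3.74 to 8.74 for Dcn, -2.65 to -0.559 for Col1a1, 2.06 to 9.06 for Col3a1, 1.04 to 8.10 for Pdgfrb, 0.0583 to 3.28 for Sparc and -0.367 to 1.50 for Fn1, and the median of the 7 from 2.02 to 3.28. Ranges that crossed 0 were also those of Myh11 (-0.708 to 2.85), Twist2 (-0.0556 to 4.68), Gpa33 (-1.51 to 0.333), Cldn5 (-2.04 to 2.15), the Vim site at 13579490 (-3.00 to 17.3) and the Fn1 site at 71641424 (-10.3 to 7.17). Called sites numbered 0 to 9, none of them stromal.

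Replicate numbers did not pair the libraries: deviations of same-numbered libraries correlated at 0.0141, -0.0163 and -0.0187 across genes. With the replicate block 0 gene spans were called, and the median of the 7 genes stayed at 2.33 points, which a block cannot change.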
